A study of Mus musculus with 2 samples.

Results

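The Wnt pathway genes measured here were the Wnt ligands, the R-spondins, the Frizzled, LRP and ROR receptors, the secreted inhibitors, the main cytoplasmic transducers, the TCF/LEF factors and the matricellular products Wisp1 and Wisp2. They were chosen by a rule on gene symbols in the platform annotation and comprised 61 of the 16637 genes named on the array, read by 77 probes. The cells were mouse embryonic fibroblasts labelled as Xbp1 knockout, on day 3 and on day 0 of drug-induced adipogenesis, with 1 array for each day. Xbp1 encodes a factor that switches on genes of the unfolded protein response, and the labels give the knockout for both days, so no cells with intact Xbp1 enter the comparison. Day 0 was the day of confluence, and the induction of 72 h combined 5 µM troglitazone, 5 µM DXM, insulin at 10 µg/ml and IBMX at 0.25 mM, so the effect of any single agent cannot be told apart. The labels do not say whether the day 0 cells were collected before the agents were added. The labels do not say whether the fibroblasts were a clone, a pool of embryos or the product of 1 animal. Since each day was a single array, no difference could be checked in replicates, and no p-values are given.

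Wnt proteins are secreted, lipid-modified ligands that bind Frizzled receptors together with the co-receptors LRP5 and LRP6. In the canonical branch this inhibits the complex of Axin, APC and GSK3β that otherwise marks β-catenin for degradation, and β-catenin then joins TCF/LEF factors at target genes, while other branches act through ROR receptors, cell polarity proteins or calcium. In fibroblast-like preadipocytes, canonical signalling by ligands such as WNT10B is known to restrain differentiation into fat cells, and secreted inhibitors of the SFRP and DKK families limit how much ligand reaches the receptors.

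Signals are quantile-normalized intensities in arbitrary units, and a difference is the log2 signal on day 3 minus that on day 0. A gene counts as detected if it read over 122, the median of the gene probes, on 1 day or both, and where a gene had several probes the one with the highest mean signal stood for it. With a threshold from empty spots instead, 59 of the 61 Wnt pathway genes would count. A gene called not detected is therefore not shown to be absent. Gene probes had a median raw intensity of 166 in the day 3 array, against 78 in the day 0 array. Scatter between repeated control spots gave an SD of a difference of 0.34 to 0.43 by its median over features and of 0.58 to 0.89 when pooled, depending on the signal. That SD covers spots only and leaves out variation between cultures, extractions and hybridizations. All 12 fibroblast markers exceeded the threshold on both days, with summed signals of 208441 on day 3 and 223380 on day 0. On the log2 scale, 2 of them were at least 2-fold higher on day 3, Fn1 (2.055) and Fbn1 (1.30). Another 2 were at least 2-fold lower, S100a4 (-1.56) and Col1a1 (-1.06). Of 12 adipocyte markers, 5 exceeded the threshold on each day. Signals summed over the 12 were 64166 on day 3 and 10956 on day 0, most of it from Lpl. Of the 5 above the threshold, 3 were at least 2-fold higher on day 3, while Pparg (-0.71) and Cebpa (-0.06) were not higher. The other 7 were below the threshold on both days, so no fold is given for them. Among these, Adipoq read 120.5 on day 3, just under the threshold, and 12 on day 0. Fabp4 read 59.5 on day 3 and 10.5 on day 0, while Cfd was lower on day 3 (10, against 15.5 on day 0). Of 7 macrophage and blood markers, 3 exceeded the threshold on day 3 and 4 on day 0, with summed signals of 43608 on day 3 and 17294 on day 0. Ptprc, which marks all white blood cells, and Adgre1, which marks macrophages, read 10.5 or less on both days. Brighter members of that list were higher on day 3, with Cd14 at 39698.5 on day 3 and 16036 on day 0 (1.31 on the log2 scale) and Itgam at 3556 on day 3 and 703.5 on day 0 (2.34), while Csf1r was at 51.5 on day 3 and 269.5 on day 0. The part of other cells in the results below was not tested. In bulk RNA, fewer cells of a type and less RNA per cell cannot be told apart. The signal of Xbp1 itself was 13561 on day 3, against 20936 on day 0, and the log2 difference of -0.63 lies within the pooled repeat-spot SD of 0.89, and since the place of its probe relative to the deleted part was not analysed here, it does not check the label.

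Of the 61 Wnt pathway genes, 44 were detected, 35 of them on both days, 6 on day 3 only and 3 on day 0 only. The genes differing at least 2-fold went both ways, with 6 higher on day 3 (13.6% of those detected) and 5 lower (11.4%). Among all 10656 detected genes, 12.8% were higher by that measure and 10.3% lower, so the shares lay near the background in both directions. The higher genes were Rspo4, Wnt8b, Fzd4, Sfrp5, Dkk3 and Wnt5b, and the lower ones were Dkk2, Wnt16, Rspo2, Apc and Wnt7a. With dim signals raised to the threshold, 6 were higher and 3 lower, because Wnt16 and Wnt7a were below the threshold on day 3. The background by that rule was 10.2% higher and 8.51% lower. Over the 35 genes above the threshold on both days, 5 were higher and 3 lower, against 10.1% and 8.43% of all such genes.

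Of the 44 detected genes, 28 had a difference above 0 and 16 below it, against 5486 and 5160 of all 10656 detected genes. The median difference of the 44 was 0.35, against 0.03 over all detected genes. That median turned to -0.18 when arrays were scaled to 1 median, a setting in which all genes had a median of -0.49, and it was 0.96 without normalization, in which all genes had a median of 0.67. Relative to all genes it was 0.30 and 0.29 in those 2 settings. Differences under 1.5-fold made up 20 of the 44 genes (45.5%), against 54.8% of all detected genes. Of the 44, 23 differed by less than the pooled repeat-spot SD (52.3%, against 61.6% of all detected genes), and 6 differed by at least 2 such SDs (13.6%, against 11.9%). Those 6 were Rspo4, Wnt8b, Fzd4, Sfrp5, Dkk2 and, with its dim day 3 signal as read, Wnt16.

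**Figure D1:**
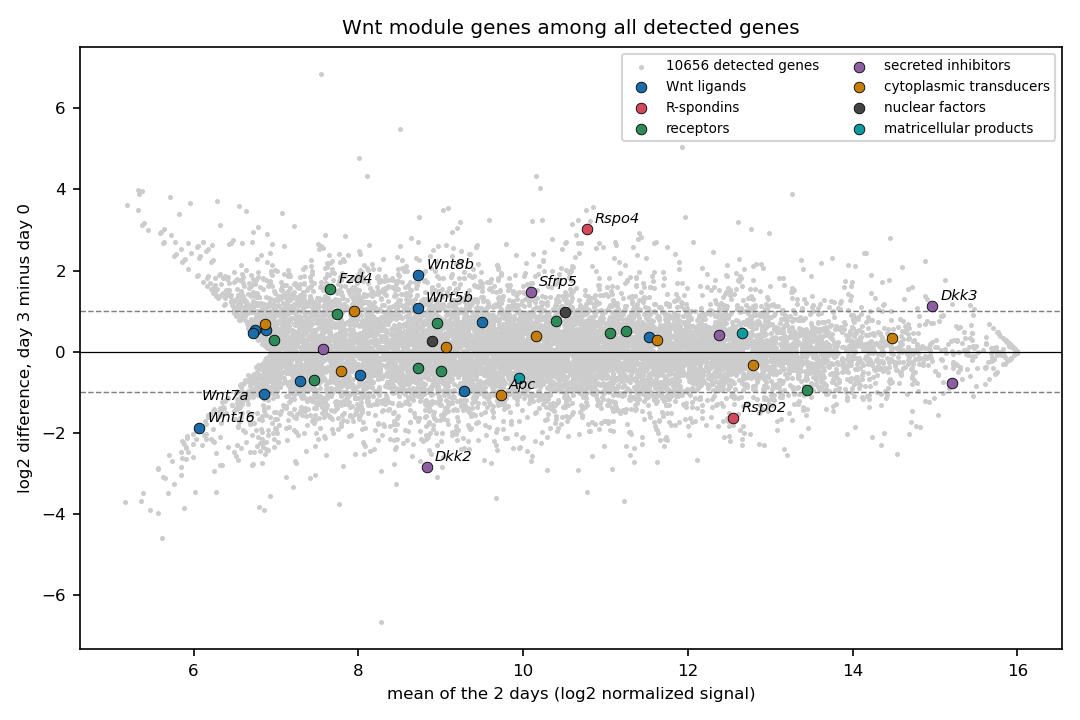
Log2 difference (day 3 minus day 0, vertical axis) against the mean log2 normalized signal of both days (horizontal axis) for 10656 detected genes (grey) and the 44 detected Wnt pathway genes (coloured by role), with 1 array a day. Dashed lines mark 2-fold; Rspo4 at 3.02 and Dkk2 at -2.84 lie farthest from 0 among the coloured points.

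The R-spondins, secreted proteins that amplify Wnt signals through LGR receptors and the ubiquitin ligases ZNRF3 and RNF43, held large differences in both directions. Rspo4 had a signal of 4978 on day 3, against 614 on day 0, an 8.11-fold higher signal and a log2 difference of 3.02 with a pooled repeat-spot SD of 0.58. By difference it ranked 43 from the top of 10656 detected genes. The value rests on 1 of its 2 probes, because the other, at 0.5 on day 3 and 27 on day 0, was below the threshold on both days. Rspo2, the family member best known for limb and lung development, went the other way, with 3407 on day 3, against 10547 on day 0, a log2 difference of -1.63 with a pooled repeat-spot SD of 0.89. Its single probe stayed at least 2-fold lower in each of the 7 alternative settings that can alter its value. Rspo1 and Rspo3 were below the threshold on both days, at 75 and 97 on day 3 and at 55.5 and 69.5 on day 0.

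Promoter windows of 250 bases before the gene start, from RefSeq on build GRCm38.p6, are shown for the detected genes with the largest difference in each direction, Rspo4 and Dkk2, and for Wnt5b and Fzd7, which carry the letters of a TCF/LEF site. Any Wnt5b window without such a site was left out, and the other genes with a site are named below but not shown. The search used CTTTGNN, with each N an A or a T, for TCF/LEF, TGACGTCA for the cAMP response element and TATAAA for the TATA box, each on both strands, and no 2 of these motifs overlap in the windows shown. Capitals mark a TATA box in Dkk2 and a TCF/LEF match in Wnt5b and Fzd7.
Rspo4, chr2:151842677-151842926, plus strand: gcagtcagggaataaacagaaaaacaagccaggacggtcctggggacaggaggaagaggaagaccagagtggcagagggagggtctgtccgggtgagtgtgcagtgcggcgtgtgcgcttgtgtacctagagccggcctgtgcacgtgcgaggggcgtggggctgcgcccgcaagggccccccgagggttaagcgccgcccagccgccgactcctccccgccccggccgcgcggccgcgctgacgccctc
Dkk2, chr3:132085042-132085291, plus strand: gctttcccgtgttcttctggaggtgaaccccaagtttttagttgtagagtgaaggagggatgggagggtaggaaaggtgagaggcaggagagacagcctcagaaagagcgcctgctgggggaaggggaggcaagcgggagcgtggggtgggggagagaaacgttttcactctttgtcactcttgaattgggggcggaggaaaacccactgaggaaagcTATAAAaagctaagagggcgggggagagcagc
Wnt5b, chr6:119449387-119449636, minus strand: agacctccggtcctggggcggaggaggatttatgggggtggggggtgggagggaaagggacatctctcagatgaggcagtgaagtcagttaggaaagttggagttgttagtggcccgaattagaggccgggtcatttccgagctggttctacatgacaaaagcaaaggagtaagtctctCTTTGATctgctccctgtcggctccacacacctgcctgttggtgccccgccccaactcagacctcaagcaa
Fzd7, chr1:59481897-59482146, plus strand: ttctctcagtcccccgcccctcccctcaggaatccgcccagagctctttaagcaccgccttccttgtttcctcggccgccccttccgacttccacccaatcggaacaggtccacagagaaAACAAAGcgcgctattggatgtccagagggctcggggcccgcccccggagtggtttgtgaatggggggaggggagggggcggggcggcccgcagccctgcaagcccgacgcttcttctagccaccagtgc
The Rspo4 window was 69.6% G and C with 24 CpG pairs, and the Dkk2 window was 55.6% G and C with 7 CpG pairs and a TATA box starting 32 bases before the gene start. The match in Wnt5b, CTTTGAT, starts 71 bases before the gene start, and the match in Fzd7, AACAAAG, which is CTTTGTT on the opposite strand, starts 130 bases before it. Promoter windows were matched for 41 of the 61 genes, 50 windows in all. The TCF/LEF letters were in 6 of the 50, belonging to Dkk1, Fzd7, Lef1, Tcf7l2, Wnt11 and Wnt5b, against 14.8% of 32851 windows of all genes. The cAMP response element was in 0 of the 50, against 1.55% of all windows, and the TATA box in 10, against 12.4%. A match is a description of these letters in this window, and it was not tested whether any factor binds there.

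Of the 19 Wnt ligand genes, 12 were detected, of which 2 were past 2-fold toward day 3 and 2 toward day 0. Wnt8b had a signal of 815.5 on day 3, against 220.5 on day 0, a log2 difference of 1.89. Wnt5b, a ligand mostly tied to noncanonical signalling, had 614 on day 3, against 290.5 on day 0, a log2 difference of 1.08. Both exceeded the threshold on each day, and their differences exceeded the pooled repeat-spot SD of 0.74, Wnt5b by less than 1 further SD. Wnt16 had 35 on day 3, below the threshold, against 128.5 on day 0, so its signal was at least 1.05-fold lower. Wnt7a had 81 on day 3, likewise below the threshold, against 165.5 on day 0, at least 1.36-fold lower. These ligands lie close to the threshold, and the size of their difference is not measured.

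Wnt5a, which signals through ROR receptors in many mesenchymal cells, had probes at odds. The probe standing for the gene read 3353 on day 3, against 2624 on day 0, a log2 difference of 0.35, while the other read 902 on day 3, against 3189.5 on day 0, a log2 difference of -1.82. Both probes were well over the threshold, so no direction is given for Wnt5a. Wnt4, a ligand of kidney and gonad development, had 444.5 on day 3, against 866.5 on day 0 (-0.96). Wnt6, which is known to restrain adipogenesis in mouse preadipocytes, had 938 on day 3, against 562.5 on day 0 (0.74), and its other probe gave -0.20. Wnt9a had 211.5 on day 3, against 317 on day 0 (-0.58). The day 3 signals of Wnt1, Wnt7b and Wnt9b lay just over the threshold, at 130, 123.5 and 141, against 89.5, 89.5 and 98 on day 0, so they were at least 1.07-fold, 1.01-fold and 1.16-fold higher. Wnt11 was at the threshold of 122 on day 3, against 200 on day 0, at least 1.64-fold lower. The 7 ligands below the threshold on both days were Wnt2, Wnt2b, Wnt3, Wnt3a, Wnt8a, Wnt10a and Wnt10b, with signals of 5.5 to 95 on day 3 and of 12 to 101.5 on day 0. Wnt2 lay farthest apart among them, at 5.5 on day 3 and 92 on day 0, but both signals are under the threshold and no fold is given. For Wnt10b, the ligand most studied as a brake on fat cell formation, the brighter probe read 95 on day 3 and 101.5 on day 0, so no fold is given.

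**Figure D2:**
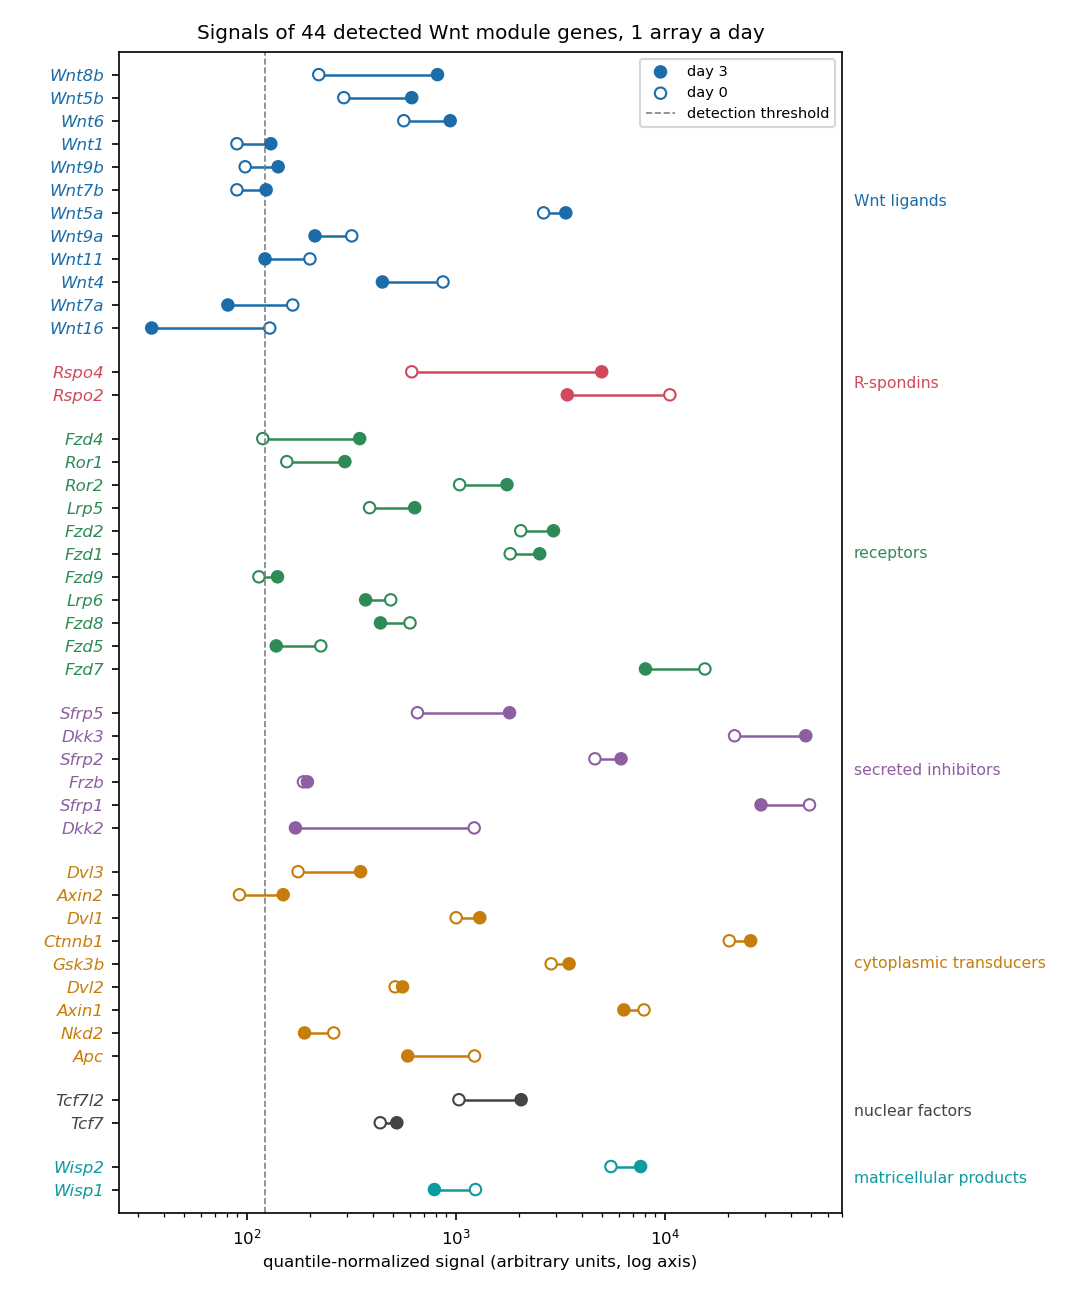
Quantile-normalized signal (log axis, arbitrary units) on day 3 (filled) and day 0 (open) of the 44 detected Wnt pathway genes, 1 array a day, grouped by role. The dashed line is the detection threshold of 122; Rspo4 and Dkk2 have the longest connecting lines, in opposite directions.

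Of 13 receptor genes, 11 were detected, 1 was past 2-fold toward day 3 and 0 toward day 0, with differences from -0.94 to 1.54. Fzd4, a Frizzled receptor that also serves the ligand norrin, had 346 on day 3, against 119 on day 0, which lies just under the threshold, so it was at least 2.84-fold higher. Fzd7 had 8059 on day 3, against 15514 on day 0 (-0.94 with a pooled repeat-spot SD of 0.89). Fzd1 had 2514 on day 3, against 1816.5 on day 0 (0.47), and Fzd2 had 2926.5 on day 3, against 2040 on day 0 (0.52), both within the pooled SD of 0.58. Fzd5 (-0.71) and Fzd8 (-0.47) were lower by less than 2-fold and Fzd9 was near the threshold (140 on day 3 and 114 on day 0). Fzd3 and Fzd6 were below the threshold on both days, at 56.5 and 43.5 on day 3 and at 34.5 and 112.5 on day 0.

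The canonical co-receptors stood on opposite sides of 0 in the main setting, and both were above it with no normalization (1.42 for Lrp5 and 0.32 for Lrp6). Lrp5 had 634.5 on day 3, against 386 on day 0 (0.72), and Lrp6 had 369.5 on day 3, against 487 on day 0 (-0.40), both within the pooled repeat-spot SD of 0.74. Another Lrp5 probe, below the threshold on both days, read 78.5 on day 3 and 99.5 on day 0, and the mean of the Lrp5 probes gave 0.19. Of the ROR receptors, which carry noncanonical signals, Ror2 had 1753 on day 3, against 1040.5 on day 0 (0.75, beyond the pooled SD of 0.58). Ror1 gave 0.92 by the probe standing for it (294 on day 3 and 155 on day 0) and -1.25 by its other probe (77.75 on day 3 and 185 on day 0), so its direction is not settled.

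Among 10 secreted inhibitors, 6 were detected, 2 were 2-fold higher on day 3 and 1 was 2-fold lower. Dkk2, which encodes a Dickkopf protein that binds LRP5 and LRP6, had 170.5 on day 3, against 1222 on day 0, a 7.17-fold lower signal (-2.84, with a pooled repeat-spot SD of 0.74). By difference it ranked 37 from the bottom, and it stayed at least 2-fold lower in each of the 7 alternatives that can alter its value, with values from -3.23 to -2.14. In the authors' table it had 207 on day 3, against 1154 on day 0. Sfrp5, a secreted Frizzled-related protein known to be made by fat cells in mice, had 1804 on day 3, against 654 on day 0, a 2.76-fold higher signal (1.46, with a pooled SD of 0.58). Dkk3, a Dickkopf relative that does not act on LRP5 and LRP6 in the same way, had 47136 on day 3, against 21502.5 on day 0 (1.13, with a pooled SD of 0.89).

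Sfrp1 was measured by a pair of bright probes that gave nearly the same difference. They read 28780.5 and 14775 on day 3, against 49109.5 and 25784.5 on day 0, with log2 differences of -0.77 and -0.80, under the pooled repeat-spot SD of 0.89 and under 2-fold. Sfrp2 had 6158.5 on day 3, against 4618.5 on day 0 (0.42), and Frzb, also called Sfrp3, had 194.5 on day 3, against 186.25 on day 0 (0.06). Dkk1, Dkk4, Sfrp4 and Wif1 were below the threshold on both days, none above 13.5 on day 3 or 17.5 on day 0.

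Of 10 cytoplasmic transducer genes, 9 were detected, and Apc was the only one past 2-fold. Apc, the scaffold of the β-catenin destruction complex, had 587.5 on day 3, against 1226.5 on day 0 (-1.06), and its other probe gave -0.41 (241.5 on day 3 and 321 on day 0). Ctnnb1, which encodes β-catenin, had 25685 on day 3, against 20294.5 on day 0 (0.34), within its pooled repeat-spot SD of 0.89. The kinase gene Gsk3b had 3476 on day 3, against 2852 on day 0 (0.29), and the scaffold gene Axin1 had 6355 on day 3, against 7933.5 on day 0 (-0.32). Axin2, a scaffold gene that is itself a widely used target of β-catenin, had 149 on day 3, against 92 on day 0, below the threshold, so it was at least 1.22-fold higher. Of the Dishevelled genes, which relay the receptor signal, Dvl3 had 349.5 on day 3, against 175.5 on day 0 (0.99, and 0.44 by its other probe), while Dvl1 (0.38) and Dvl2 (0.12) differed by less than the pooled SD. The Dishevelled antagonist gene Nkd2 gave -0.46 and -0.12 by its probes, and Nkd1 was not detected (39.5 on day 3 and 24 on day 0).

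The nuclear and matricellular genes held no 2-fold difference. Tcf7l2, a TCF factor best known from the gut epithelium, had 2049 on day 3, against 1033 on day 0 (0.99), but its other probe, which was above the threshold on day 0 only, gave -0.67 (87 on day 3 and 138.5 on day 0). Tcf7 had 521 on day 3, against 434 on day 0 (0.26), and Lef1 was not detected (54.5 on day 3 and 83 on day 0). Wisp1, now named Ccn4, a target gene of Wnt1 signalling in mouse mammary cells, had 788 on day 3, against 1239 on day 0 (-0.65). Its relative Wisp2, now Ccn5, had 7642 on day 3, against 5510.5 on day 0 (0.47). Both differences lay within the pooled repeat-spot SD.

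**Figure D3:**
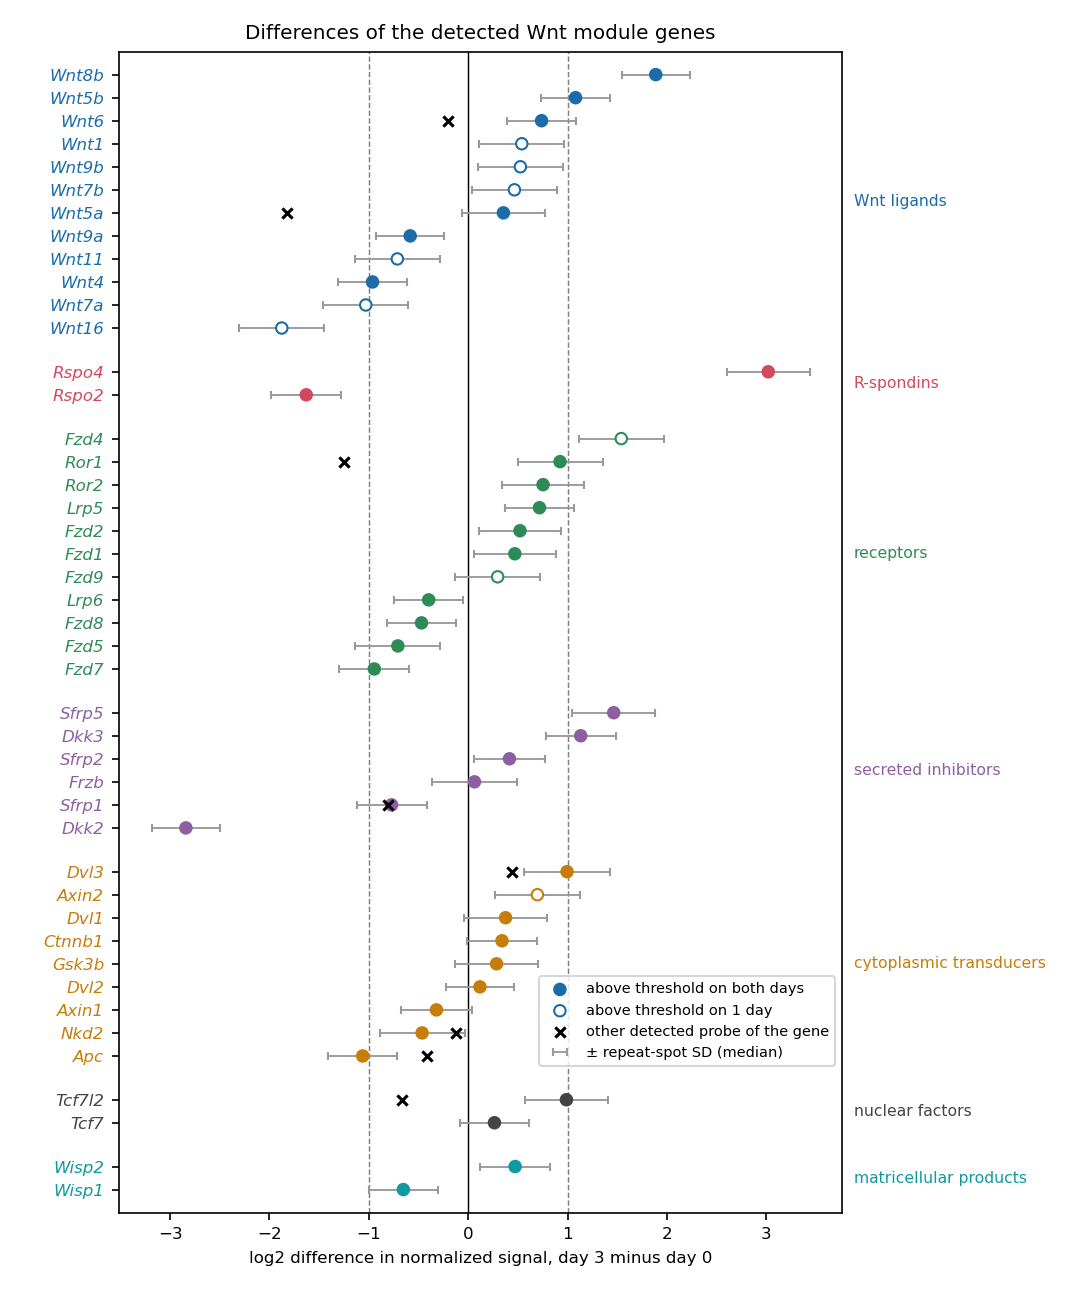
Log2 difference (day 3 minus day 0) of each detected Wnt pathway gene, by role, with bars of ± the repeat-spot SD from the median over control features; crosses are other detected probes of the same gene and dashed lines mark 2-fold. The crosses of Wnt5a, Ror1, Tcf7l2 and Wnt6 lie on the other side of 0 from the points.

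Probes of the same gene differed as much as many of these differences. Of the 8 Wnt pathway genes with more than 1 detected probe, 4 had probes of opposite sign (Wnt5a, Ror1, Tcf7l2 and Wnt6) and 3 had probes at least 2-fold apart. Over all 1968 genes with several detected probes the corresponding shares were 35.9% and 30.8%. Where the probes lie on the transcripts was not analysed here. Most Wnt pathway genes, 45 of 61, had 1 probe only and offer no such comparison.

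Other components of the pathway, a list of 60 genes of which 46 were detected, had 13 genes at least 2-fold higher on day 3 and 2 lower (28.3% and 4.35%, against 12.8% and 10.3% of all detected genes). Their median was 0.30. The higher genes included Draxin, a secreted inhibitor that binds LRP6 (1347 on day 3 and 135.5 on day 0, a difference of 3.31), and Kremen1, a Dickkopf receptor (2873.5 on day 3 and 691 on day 0, 2.06, with 0.15 by its other probe). Also higher were Dact1, which binds Dishevelled (2.30, with 0.34 by its other probe), Jup, which encodes the β-catenin relative plakoglobin (2.40), the Wnt deacylase gene Notum (1.25), the LRP6 and Wnt inhibitor gene Apcdd1 (1.27), the β-catenin co-activator genes Bcl9 (1.23) and Bcl9l (1.01), the Wnt co-receptor gene Ptk7 (1.32), Dixdc1 (1.27), Tmem198 (1.26), Igfbp4 (1.02) and Frat2 (at least 2.85-fold). The lower ones were Amer1, which tethers APC to the membrane (190 on day 3 and 623.5 on day 0, -1.71), and Rnf43, a ligase that removes Frizzled receptors (309 on day 3 and 732 on day 0, -1.24). The split was 6 higher and 3 lower under median scaling and 23 higher and 0 lower with no normalization, and it was 13 and 2, and 12 and 2, once the shift of all genes was removed from each. Before that removal, 7.78% of all detected genes were higher and 24.3% lower under median scaling, and 35.7% and 2.85% with no normalization. After it, 15.1% were higher and 10.1% lower under median scaling, and 16.5% and 10.5% with no normalization.

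Planar polarity and other noncanonical genes numbered 29 detected of 36 listed, with 6 at least 2-fold higher and 2 lower on day 3 (20.7% and 6.9%, against 12.8% and 10.3% of all detected genes) and a median of 0.58. With dim signals raised to the threshold, 5 were higher and 2 lower, against 10.2% and 8.51% of all detected genes. Rhou, a Wnt-responsive small GTPase gene, had 15289 on day 3, against 3430 on day 0 (2.16). The cadherin gene Celsr2 (1.46), the formin gene Daam1 (1.33), the polarity gene Vangl2 (1.27), Nfatc4 (1.01) and Prickle3 (at least 1.39-fold) were also higher, and Vangl1 (-1.42) and Plcb1 (-1.09) were lower. Under median scaling the split was 3 higher and 5 lower, and with no normalization it was 15 and 0. Of all detected genes, 7.78% were higher and 24.3% lower under median scaling, and 35.7% and 2.85% with no normalization. Relative to all genes the split of this list was 5 higher and 1 lower in both of those settings. By that measure 15.1% of all detected genes were higher and 10.1% lower under median scaling, and 16.5% and 10.5% with no normalization.

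Textbook target genes of β-catenin and TCF had the most differences past 2-fold of the lists, and more of them toward lower signals. The list held 45 genes outside the Wnt set, so targets described above, such as Axin2 and Wisp1, are not in it. Its members Sp5 and Lgr5 were below the threshold on both days. Of 35 detected, 14 were 2-fold lower on day 3 (40.0%, against 10.3% of all detected genes), 12 of them also at their bound, and 7 were 2-fold higher (20.0%, against 12.8%). The list's median was -0.44. Ccnd1, the G1 cyclin gene, had 2677 on day 3, against 11464.5 on day 0 (-2.10), and its other detected probes gave -2.34, -3.86 and -2.56. Myc, which encodes a growth-promoting transcription factor, had 1264.5 on day 3, against 5109.5 on day 0 (-2.02, with -0.63 by its other probe). The decoy receptor gene Tnfrsf11b had 592.5 on day 3, against 4485.5 on day 0 (-2.92). Other lower genes were Plaur (-2.19), Klf5 (-1.70), Ccn1 (-1.65, with -0.25 by its other probe), Mmp7 (-1.52), Snai2 (-1.34), Birc5 (-1.29), Rnf43, Tnfrsf19 (at least 2.57-fold), Edn1 (at least 2.02-fold), Id2 (at least 1.88-fold) and Stra6 (at least 1.23-fold). The higher ones were Ptgs2 (1.77, with 0.89 by its other probe), Nos2 (1.48), Jun (1.42), Apcdd1, Notum, Msx2 (1.22) and T (1.02). Many of these genes also answer to growth factors, the cell cycle or cAMP, and the part of β-catenin in their differences was not tested. Under median scaling the split was 17 lower and 3 higher, and with no normalization it was 7 lower and 11 higher. Of all detected genes, 24.3% were lower and 7.78% higher under median scaling, and 2.85% and 35.7% with no normalization. Relative to all genes the split of the target list was 13 lower and 7 higher in both settings. By that measure 10.1% of all detected genes were lower and 15.1% higher under median scaling, and 10.5% and 16.5% with no normalization.

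**Figure D4:**
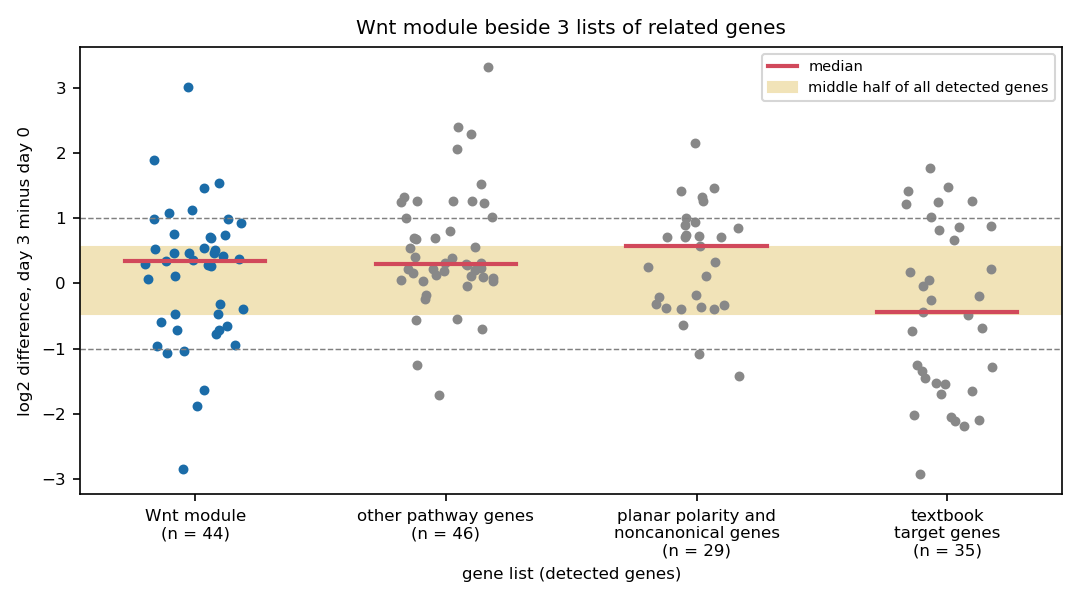
Log2 difference (day 3 minus day 0) of each detected gene in the Wnt module (n = 44) and in the lists of other pathway genes (n = 46), planar polarity and noncanonical genes (n = 29) and textbook target genes (n = 35). Red lines are medians (0.35, 0.30, 0.58 and -0.44), the shaded band spans the quartiles of all detected genes (-0.47 to 0.56) and dashed lines mark 2-fold.

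The direction of each of the 11 genes past 2-fold was the same in every alternative that gave a value, and the size of some was not. Detection rules leave a gene's value as it is, and among the alternatives that can alter it Dkk2, Rspo2, Fzd4 and Wnt8b stayed past 2-fold in each with a value (7, 7, 7 and 6 of them). Wnt7a and Wnt16 had no value with no normalization, since both their signals then lay under the threshold. Those of Wnt7a were 112 on day 3 and 110 on day 0, so its lower signal on day 3 was not seen there. Rspo4 ranged from 0.79, with the mean of both its probes, to 3.57, with no normalization. Dkk3 had 0.49 under median scaling and Apc had -0.48 with no normalization. Wnt16 had -0.07 with dim signals raised to the threshold.

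**Figure D5:**
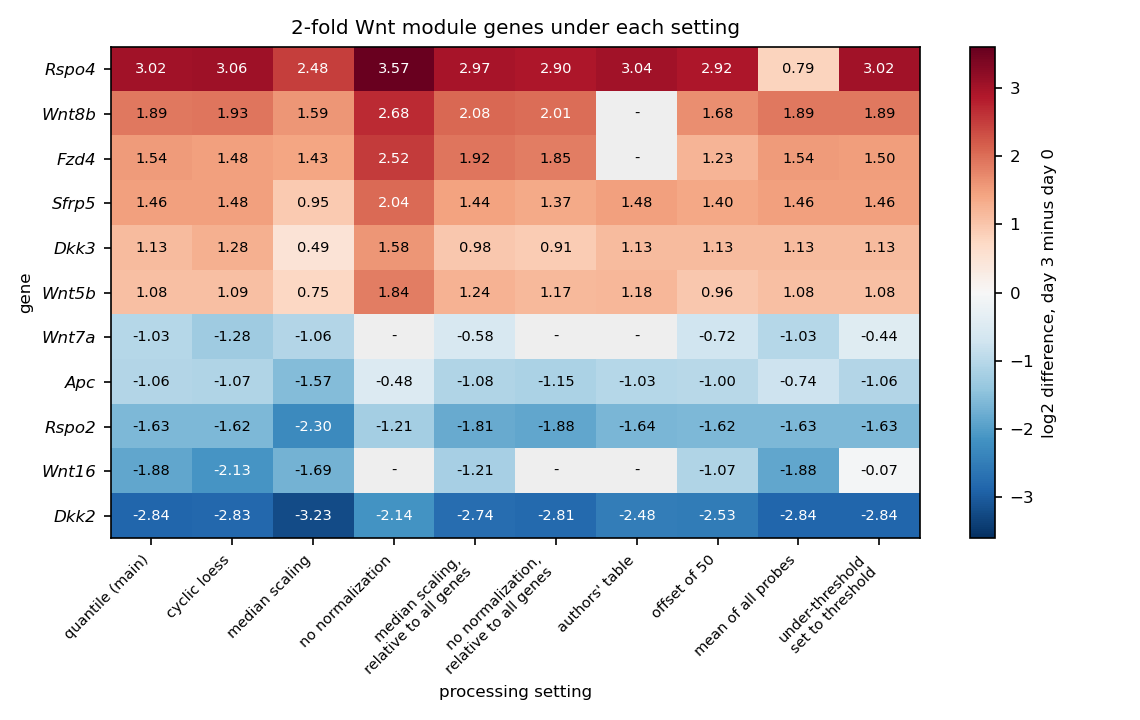
Log2 difference (day 3 minus day 0, colour and number) of the 11 genes past 2-fold (rows) under the main setting and 9 alternatives (columns); a dash marks a gene with no detected value. No gene changes sign across a row, and Rspo4 falls to 0.79 only with the mean of all probes.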

How the data were processed

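The authors deposited per-sample tables of linear fluorescence intensity for 39200 spots and, for the whole series, a table of normalized intensity values. Per the labels' protocols, 1 µg of total RNA was amplified and labelled with Cy5 by the company Phalanx. What scanner, image software and background correction were used is not given in the sources. The 7402 empty spots centred on 0, with 95th percentiles of 9 (day 3) and 7 (day 0), so background appears to have been removed before deposit. The 29922 gene probes were quantile normalized with limma 3.58.1 in R 4.3.3, floored at 10 and log2 transformed. Signals of 65000 or more count as saturated, and 0 of the 77 Wnt pathway probes reached that. Symbols came from the platform annotation and were updated through a RefSeq table of GRCm38.p6 (17558 probes current, 3410 by synonym, 52 kept, 8902 without a symbol).

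With 1 array per day there was no test: genes were counted past 2-fold and set beside all detected genes. Where 1 day lay under the threshold the fold is a lower bound against it. Control features printed as 5 or 6 spots gave the repeat-spot SD. The normalization and the 2-fold threshold were tried on simulated data. The differences put in were all larger than 2-fold and in probes over the detection threshold. Apart from these and random noise, the simulated arrays differed by a uniform factor. The simulation therefore cannot show how differences near 2-fold or dim signals behave. Every gene of the Wnt set could be named, and of the other lists those past 2-fold. The genes and lists were chosen with earlier results of these data known, so their shares beside those of all genes are descriptions. The number of arrays limits the precision. Alternatives were median scaling, cyclic loess with 3 iterations, no normalization, the authors' table, other detection rules, an offset of 50, and the mean of all probes.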

Additional observations from a re-analysis of the deposited data

How the results depend on the processing

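The counts of Wnt pathway genes 2-fold higher and lower on day 3, 6 and 5 in the main setting, depended most on the scaling: 3 and 9 under median scaling over all gene probes, and 19 and 2 with no normalization. Of all detected genes, 12.8% and 10.3% were so in the main setting, 7.78% and 24.3% under median scaling, and 35.7% and 2.85% with no normalization. The lower count of Wnt pathway genes was 3 in the authors' table, 3 with both days above the threshold, 3 with dim signals raised to the threshold, 8 with no detection filter and 8 with a threshold from empty spots. In the same order, 8.46%, 8.43%, 8.51%, 10.8% and 11.5% of all genes were lower. The median of the Wnt pathway genes, 0.35, was -0.18 under median scaling, 0.26 under cyclic loess, 0.96 with no normalization, 0.24 with dim signals raised to the threshold and 0.27 with the mean of all probes. Under settings chosen after seeing the data, 9 Wnt pathway genes were higher and 5 lower relative to all genes after median scaling, where 15.1% and 10.1% of all genes were so. The counts were the same with no normalization, where 16.5% and 10.5% of all genes were so. In another such setting, 6 and 4 had every detected probe past 2-fold, for which no share of all genes is given. Other pathway genes were 6 higher under median scaling and 23 higher and 0 lower with no normalization, with 4 lower under no detection filter and under the threshold from empty spots. Planar polarity and noncanonical genes were 3 higher and 5 lower under median scaling and 15 and 0 with no normalization. Their lower count was 0 in the authors' table, 6 with no detection filter, 6 with the threshold from empty spots, 1 with an offset of 50, and 1 relative to all genes in both settings. With the offset of 50, 8.35% of all genes were lower. Target genes were 3 higher under median scaling, 11 higher and 7 lower with no normalization and 4 higher in the authors' table. In the authors' table, 9.91% of all genes were higher. Median scaling and no normalization differ by 1 constant per array; beyond that the cause was not tested. No paired analysis was possible because each day is 1 array. No array can be left out for the same reason. Dim signals near 122 limit what can be said of most ligands.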
